A study of Isoetes sinensis with 3 samples.

Results

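Tandem arrays with one exon structure were examined in the gene annotation of Isoetes sinensis, an aquatic tetraploid quillwort. An array here is a run of nearby genes whose inner coding segments have the same lengths in the same order. The members were chosen by their annotated positions: a gene on 1 of the 22 pseudochromosomes counted if it had at least 4 CDS features (the coding pieces of its exons) and if its ordered lengths, without the first and the last CDS, equalled those of another gene within 10 gene ranks on the same chromosome, on either strand. Of 57303 annotated genes, 54063 lay on the pseudochromosomes and 24095 of these had 4 or more CDS features. The rule took 602 of them, or 2.5%, in 287 arrays with 231 distinct lists of lengths, and since the rule made this share nothing is read from it. The part of the study's deposited data used here lists 1 RNA library each labelled root, shoot and sporophyte. The study's methods name roots, shoots and sporangia, and do not say whether the library labelled sporophyte is the sporangia sample. The study also deposited its genome assembly and further RNA sequencing, including small RNA and full-length transcripts. The file analysed here holds gene models only, so no expression level of an array gene is given and no library enters a comparison. It pairs the identifiers with no gene name or function, so the genes are described by structure and place.

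Tandem duplication places a copy of a gene beside the original, often through unequal crossing over between repeated sequences. Coding exons of copies tend to keep their lengths because a shift of the reading frame is selected against, whereas introns gain and lose bases more freely, so that equal intron lengths mark copies with few length changes. In a tetraploid, most genes also have a counterpart on another chromosome, and an array may therefore face an array, a lone gene or no such gene there. The neighbouring-numbered chromosomes (1 with 2, up to 21 with 22) are called partners below, and the gaps between consecutive CDS features are called introns.

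Most arrays were pairs. There were 263 arrays of 2 genes (91.6%), 20 of 3 genes and 4 of 4 genes. The 11 chromosome pairs each held 40 to 80 array genes, 54.7 ± 14.2 on average (SD, n = 11). The share among genes with 4 or more CDS features ran from 1.74% on chromosomes 9 and 10 to 3.65% on chromosomes 13 and 14. Genes with few coding segments met the rule more often. Array genes made up 4.07% of genes with 4 CDS features (210 of 5161) and 1.08% of those with 11 to 36 (56 of 5189). The lists with 4 CDS features carry only 2 compared lengths, and 54 of the 99 such arrays had the same list on some other chromosome pair, against 2 of the 28 arrays with 11 or more CDS features.

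The rule keeps array members close in gene order, while their distance in bases varied widely. Of 315 steps from one array gene to the next, 113 (35.9%) joined direct neighbours and 66.0% spanned at most 3 ranks. The distance between consecutive members had a median of 57549 bp, with quartiles of 25069 and 141696 bp and a maximum of 1077634 bp. Only 29 steps were shorter than 10 kb, including 2 in which the gene models overlapped, and 110 were 100 kb or longer. In all, 689 other genes lay between members, and 96 arrays (33.4%) had none. The median array spanned 70686 bp, and the range was 3934 to 1083187 bp. Array genes that were direct neighbours lay a median of 22511 bp apart, against 23658 bp for 11389 other neighbouring gene pairs with 4 or more CDS features. Compared over the 11 chromosome pairs, this difference in medians was -0.09 ± 0.66 on the log2 scale (SD, n = 11; lower in 6 pairs) and did not pass an exact two-sided sign-flip permutation test (p = 0.68, adjusted p = 0.68). All 7 such tests of this report were adjusted together by the Benjamini-Hochberg method. A chromosome pair is a unit of 1 genome and not a biological replicate, so these p-values measure the spread between chromosome pairs only.

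Gene pairs with equal lists thinned out quickly with distance. Direct neighbours supplied 113 such pairs, ranks 2 and 3 together 101, ranks 4 to 6 80, ranks 7 and 8 27, and ranks 9 and 10 24. Just outside the limit, ranks 11 and 12 held 6 pairs. The pairs just inside the limit had 29.6% of their introns equal to the base and 9 of the 24 had equal total CDS length. Those just outside had 23.6% equal introns, and 3 of the 6 had equal totals. The wider bin of ranks 11 to 20 had 47.2% equal introns over 25 pairs. Per rank there were 34.5 pairs over ranks 1 to 10 and 2.5 over ranks 11 to 20.

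**Figure D1:**
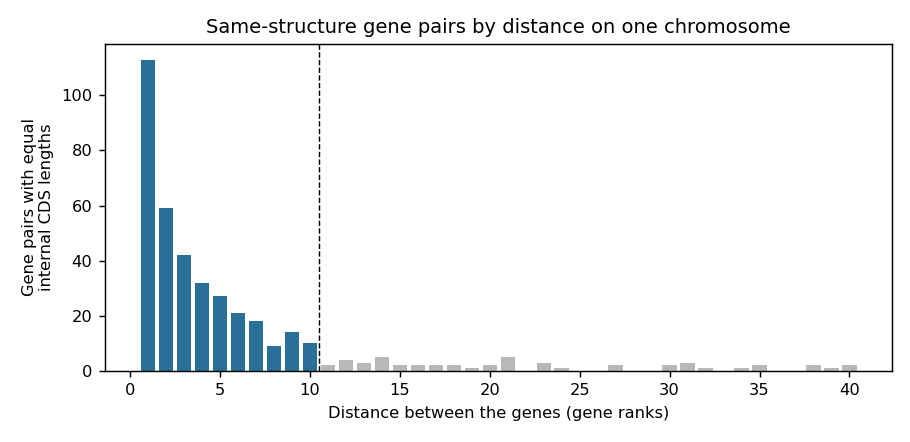
Number of gene pairs on 1 chromosome with equal internal CDS lengths (vertical axis) by their distance in gene ranks (horizontal axis, shown to 40). Blue bars are pairs within the limit of 10 ranks, marked by the dashed line, and grey bars lie beyond it; the count fell from 113 at rank 1 to 10 at rank 10.

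Intron identity did not follow the rank limit as sharply. Introns were equal in 40.3% on average over the 345 pairs within 10 ranks and in 32.4% over 265 pairs farther apart on 1 chromosome. By distance the mean went from 50.5% for direct neighbours to 26.5% at ranks 7 and 8, and was 54.6% at ranks 21 to 50 (55 pairs) and 19.6% beyond rank 200 (140 pairs). Over chromosome pairs the near pairs exceeded the far ones by 10.4 ± 16.3 percentage points (SD, n = 11; higher in 8), which did not pass the exact permutation test (p = 0.0605, adjusted p = 0.106). Without chromosomes 9 and 10 the difference was 13.0 points and passed (exact permutation, adjusted p = 0.0376).

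The share of array steps that kept the strand exceeded that of other genes by a difference that did not pass the test. Of the 315 steps, 175 (55.6%) kept the strand, 88 with both genes on the plus strand and 87 on the minus strand. The other 140 changed it, 74 from plus to minus and 66 from minus to plus. Among 23765 other consecutive gene pairs, 11883 kept the strand. Over chromosome pairs the shares were 56.5% and 49.97%, a difference of 6.49 ± 11.8 points (SD, n = 11; higher in 7), and the test was not passed (exact permutation p = 0.0986, adjusted p = 0.138). The difference passed when at least 8 CDS features were required, when all CDS lengths had to match or when lists were kept only if they occurred on 1 chromosome pair, and the values stand in the closing section. The larger arrays were mixed: all genes shared a strand in 151 of 263 arrays of 2, in 3 of 20 arrays of 3 and in 0 of 4 arrays of 4.

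The steps were then compared by the lengths of their features, since no sequence was used here and equal means equal in length throughout. Of 1670 introns compared over the 315 steps, 848 (50.8%) had exactly equal lengths. In 82 steps (26.0%) every intron was equal, in 134 (42.5%) none was, and 99 (31.4%) lay between. Total CDS length, to which the unconstrained first and last segments contribute, was equal in 150 steps (47.6%). The first CDS was equal in 183 steps and the last in 210. Where the totals differed, the median difference was 30 bp and the largest 1593 bp, and 163 of the 165 differences were multiples of 3, the length of a codon. The total itself was a multiple of 3 in 99.3% of array genes and 99.2% of others, which nearly fixes that count. Totals were equal in 80 of the 82 steps with every intron equal, but in only 22 of the 134 with none.

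Wholly identical pairs, equal in the length of every CDS and every intron, made up 80 steps (25.4%). They kept the strand in 62 cases (77.5%), against 113 of the other 235 steps (48.1%). Their median distance was 35643 bp (quartiles 18656.5 and 69707.75 bp) and that of the other steps 71985 bp (31389.5 and 164453 bp). In 58 of the 80 the whole gene lengths were equal too, UTRs included where annotated. Among the 80 pairs, a UTR was annotated in both genes of 50 and in neither gene of 26. In those 26, equal gene length follows from the equal CDS and introns and adds nothing. When arrays with a wholly identical pair were left out, an alternative added after seeing the data, the strand difference over chromosome pairs was -0.285 points.

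**Figure D2:**
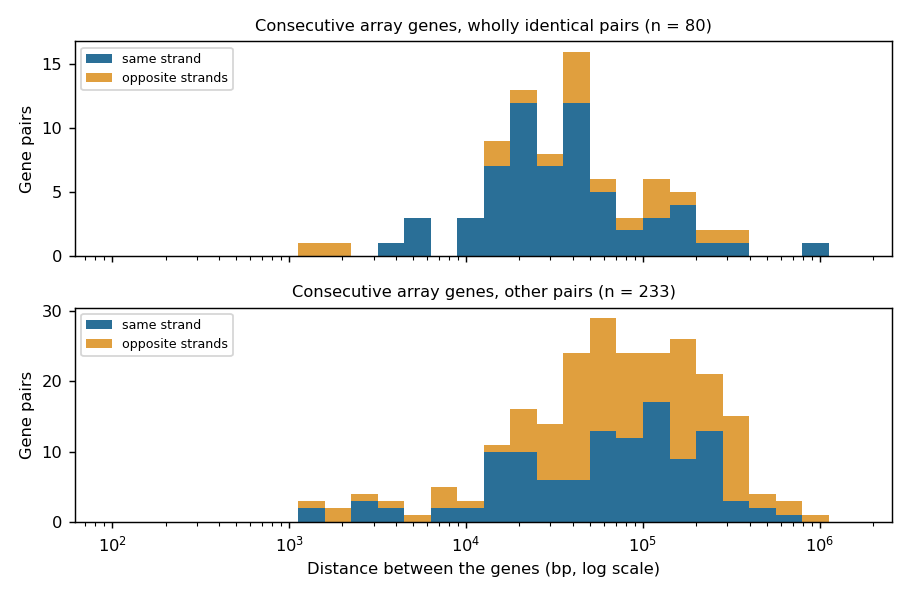
Distances in bp between consecutive array genes (horizontal axis, log scale) for the 80 wholly identical pairs (upper panel) and the other 233 non-overlapping pairs (lower panel), with same-strand pairs in blue and opposite-strand pairs in orange. The identical pairs lay closer, with a median of 35643 bp, and were mostly on 1 strand.

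The longest structure in an array belonged to evm.TU.Chr14.265 (chr14:5129264-5149741) and evm.TU.Chr14.266 (chr14:5164749-5185226), both on the minus strand. Each had 36 CDS features, 11634 bp of CDS and a gene length of 20478 bp. All 35 introns were equal, from 64 to 1678 bp, and 15007 bp separated the genes. No gene on chromosome 13 had this list. The array with the longest span, 1083187 bp, joined evm.TU.Chr14.3469 (chr14:65059567-65062340) and evm.TU.Chr14.3499 (chr14:66139975-66142753), small genes of 378 bp of CDS with introns of 254, 160 and 188 bp in both. Between them lay 7 other genes, so closeness in rank did not mean closeness in bases.

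Some arrays were woven into one another. In 17 cases the step of one array crossed that of another, as in the gene order A, B, A, B, and in 3 cases it enclosed it. All 17 crossings were between steps that both kept their strand. Together 33 steps (10.5%) with 65 genes formed 15 such blocks. Within them 30 of 33 steps kept the strand (90.9%), 19 were wholly identical and 83.2% of introns were equal. The 282 steps outside had 51.4%, 61 and 46.0%. Steps of the same block overlap along the chromosome, so the 33 steps of the 15 blocks are not independent observations of strand or identity. The 19 wholly identical steps are also among the 80 described above. Many block steps also belong to the arrays without a partner copy described below, so these contrasts share steps. No step in a block joined direct neighbours, and the median rank distance was 4, against 2 outside. A step that crosses or encloses another must have a gene between its members. Of the 282 steps outside, 113 joined direct neighbours, so this contrast in rank distance is largely built in.

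The 3 blocks with 3 steps each, chosen after their values were seen, show the order. On chr17:94593150-94707640 the genes evm.TU.Chr17.5000, evm.TU.Chr17.5002 and evm.TU.Chr17.5004, with 5, 4 and 16 CDS features on the strands minus, minus and plus, were followed by evm.TU.Chr17.5005, evm.TU.Chr17.5007 and evm.TU.Chr17.5009 with the same lists in the same order and on the same strands. All 3 steps spanned 3 ranks, and 21 of 22 introns were equal. The remaining intron measured 1208 bp in evm.TU.Chr17.5004 and 1207 bp in evm.TU.Chr17.5009. On chr3:82848278-83021202 the genes evm.TU.Chr3.4375, evm.TU.Chr3.4376 and evm.TU.Chr3.4379 (5, 10 and 9 CDS features) matched evm.TU.Chr3.4383, evm.TU.Chr3.4384 and evm.TU.Chr3.4387 in the same way. There 17 of 21 introns were equal, all 3 steps spanned 5 ranks, and the total CDS lengths of 1497, 1248 and 2418 bp were equal within each pair. The unequal introns of evm.TU.Chr3.4376 and evm.TU.Chr3.4384 were 619 against 594 bp and 348 against 349 bp. The remaining block, on chr5:66699728-67140988, was looser, with 3 same-strand steps over 2 lists but only 4 of 20 introns equal.

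The partner chromosome held another array with the same list for 104 arrays (36.2%), a single gene for 62 (21.6%), scattered genes for 6 and no gene with that list for 115 (40.1%). How often other genes with 4 or more CDS features have a gene with their list on the partner was not computed. These shares are therefore not read as a trait of arrays. Most copies lay near the expected place: 169 of the 172 arrays with a partner copy had one within 50 ranks of the interval expected from 4236 anchors, which are lists found once on each chromosome of a pair and in no array. For 24 of the 287 arrays the interval itself was over 50 ranks long, so that place was poorly checked there. Counting only such local copies, the partner had as many genes as the array in 74 cases, fewer in 196, of which 118 had none, and more in 17. The rule asks for at least 2 copies on the array's own chromosome and for none on the partner, so an excess of fewer over more is built into this count. Some of these arrays faced a gene with a partly shared list, for which no background share was computed. Of 65 arrays without a partner copy and with at least 4 internal lengths, 35 (53.8%) faced a local gene that shared at least 50% of the lengths in order, and in 6 that gene held all of them.

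Arrays without a partner copy were the most alike inside. Their introns were equal in 77.8% on average (median 100%), against 50.4% in arrays facing a single gene and 8.67% (median 0%) in arrays facing an array. A wholly identical pair was present in 56 of the 115, in 20 of the 62 and in 1 of the 104, and in 2 of the 6 facing scattered genes. Total CDS lengths were equal in 77.4%, 55.1% and 18.3% of gene pairs, averaged over the arrays without a copy, with a single gene and with an array on the partner. The strand was kept in 84 of 118 steps (71.2%), 31 of 65 (47.7%) and 57 of 125 (45.6%), in the same order. Intron identity was higher in arrays without a partner copy than in those facing an array in 11 of 11 chromosome pairs, and the same-strand share in 10 of 11. This contrast was chosen after the values were seen and is given without a test. These kinds of array also differed in other ways. The list occurred on other chromosome pairs for 19 of the 115, 24 of the 62 and 52 of the 104. Median CDS features were 6, 5 and 5, and median spans 50888, 74810 and 104897 bp, in that order. Whether these differences or the interleaved steps, many of which belong to arrays without a partner copy, bear on the contrast was not tested.

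**Figure D3:**
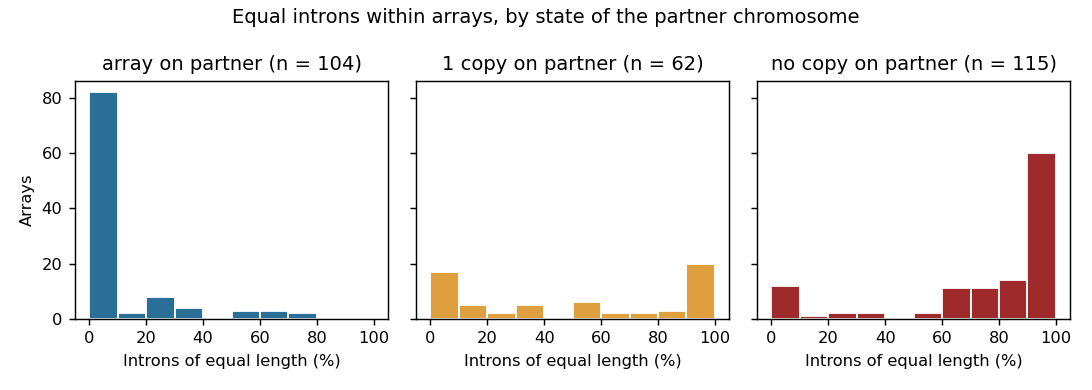
Histograms of the percentage of introns with exactly equal length within each array (horizontal axis) against the number of arrays (vertical axis), for arrays facing an array, 1 gene or no gene with the same list on the partner chromosome. The 104 arrays facing an array gathered at 0 (median 0%), while the 115 without a copy gathered at 100% (median 100%).

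For the 172 arrays with a partner copy, each array could be compared with itself and with the partner chromosome. Introns were equal in 26.0% between genes of an array and in 38.7% between array genes and their copies on the partner chromosome. The difference of -12.7 ± 6.30 points (SD, n = 11) was negative in 11 of 11 chromosome pairs and passed the exact permutation test (p = 0.000977, the smallest 11 pairs allow, adjusted p = 0.00342). Total CDS length was equal in 33.3% within and 52.7% across, a difference of -19.4 ± 9.85 points, again in 11 of 11 (exact permutation p = 0.000977, adjusted p = 0.00342). The comparison leaves out the 115 arrays without a copy, which were the most alike inside. Neither difference passed when genes with 3 CDS features were admitted or when at least 8 were required. That in introns also did not pass when only same-strand pairs were taken, and it turned to 8.68 points (exact permutation, adjusted p = 0.328) when all CDS lengths had to match.

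**Figure D4:**
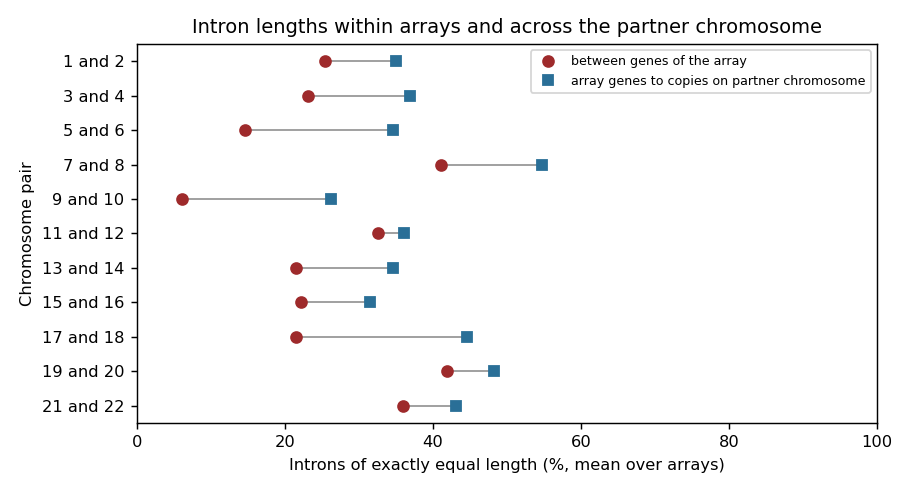
Mean percentage of introns with exactly equal length (horizontal axis) for each of the 11 chromosome pairs (vertical axis), between genes of an array (red circles) and between array genes and their copies on the partner chromosome (blue squares). The circle lies left of the square in 11 of 11 chromosome pairs, with means of 26.0% and 38.7%.

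Split by partner state, without a test, the difference lay mainly in arrays that faced arrays. There, introns were equal in 8.67% within and 30.2% across, with the lower value inside in 101 of 104 arrays. Averaged per chromosome pair, the value within ran from 0% to 70.8%, the highest on chromosomes 7 and 8 with 2 such arrays. For 49 lists exactly 2 arrays faced each other, so these were counted from both sides with largely the same cross comparison. The 104 arrays and their 229 genes are therefore not independent comparisons. Arrays facing a single gene had 50.4% within and 49.8% across, lower inside in 28, higher in 23 and equal in 11. The 6 arrays facing scattered genes had 34.7% within and 30.1% across, lower inside in 4 and higher in 2. Taken gene by gene, the 229 genes of arrays facing arrays shared 56.0% of introns with their best partner copy and 10.5% with the best gene of their own array. The best of several partner copies was taken against what was mostly a single mate, which favours the partner. The partner copy was closer for 182 genes, an array mate for 2, and 45 tied. A partner copy was equal in every intron for 34 genes, and an array mate for 2. For the 127 genes facing a single gene the means were 48.6% and 50.5%, with 33 closer to the partner, 45 to a mate and 49 tied.

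Order was largely kept across partners where it could be followed. In 35 comparisons of a 2-gene array facing a 2-gene array, the pairing of genes that made more introns equal joined the first gene with the first in 32 and with the second in 3. Orientation was same-strand on both chromosomes in 12, opposite-strand on both in 13 and different in 10. The genes were direct neighbours on both in 9 and had equal rank distance in 13.

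Among the 4 arrays with 4 genes, the one with most CDS features is given in full. For 3 of its 4 genes the partner chromosome held a copy equal in every intron. In this the array was not typical, since among all arrays facing arrays such a copy was found for 34 of 229 genes. Over all gene pairs across the partners, 27.1% of its introns were equal, against a mean of 30.2% for arrays facing arrays. On chromosome 6, evm.TU.Chr6.3587 (chr6:70029769-70031995, minus strand), evm.TU.Chr6.3596 (chr6:70199701-70202209), evm.TU.Chr6.3600 (chr6:70255601-70258037) and evm.TU.Chr6.3611 (chr6:70432702-70434408, the last 3 on the plus strand) each had 7 CDS features with internal lengths of 63, 72, 135, 126 and 57 bp. Their total CDS lengths were 882, 909, 888 and 759 bp. In transcription order the introns of evm.TU.Chr6.3587 measured 373, 360, 75, 76, 87 and 374 bp. Those of evm.TU.Chr6.3596 were 373, 258, 75, 67, 84 and 357 bp. In evm.TU.Chr6.3600 they were 205, 135, 105, 69, 98 and 321 bp, and in evm.TU.Chr6.3611 212, 130, 108, 69, 98 and 331 bp. Within the array only 11.1% of introns were equal, with 2 of 6 shared by evm.TU.Chr6.3587 and evm.TU.Chr6.3596 and 2 of 6 by evm.TU.Chr6.3600 and evm.TU.Chr6.3611.

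Chromosome 5 carried an array with this list, evm.TU.Chr5.3530 (chr5:66790708-66793216), evm.TU.Chr5.3533 (chr5:66852337-66854780) and evm.TU.Chr5.3544 (chr5:67139200-67140988), all on the plus strand. A further copy, evm.TU.Chr5.3614 (chr5:68562642-68564868), lay outside it on the minus strand. An exact counterpart was found for 3 of the genes: evm.TU.Chr6.3596 equalled evm.TU.Chr5.3530, evm.TU.Chr6.3600 equalled evm.TU.Chr5.3533 and evm.TU.Chr6.3587 equalled the outlying evm.TU.Chr5.3614, each in 6 of 6 introns and in total CDS length. The fourth gene, evm.TU.Chr6.3611, had no such counterpart. The last gene of the chromosome 5 array, evm.TU.Chr5.3544, had introns of 213, 143, 109, 69, 92 and 326 bp and 837 bp of CDS. Within the chromosome 5 array 5.56% of introns were equal.

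**Figure D5:**
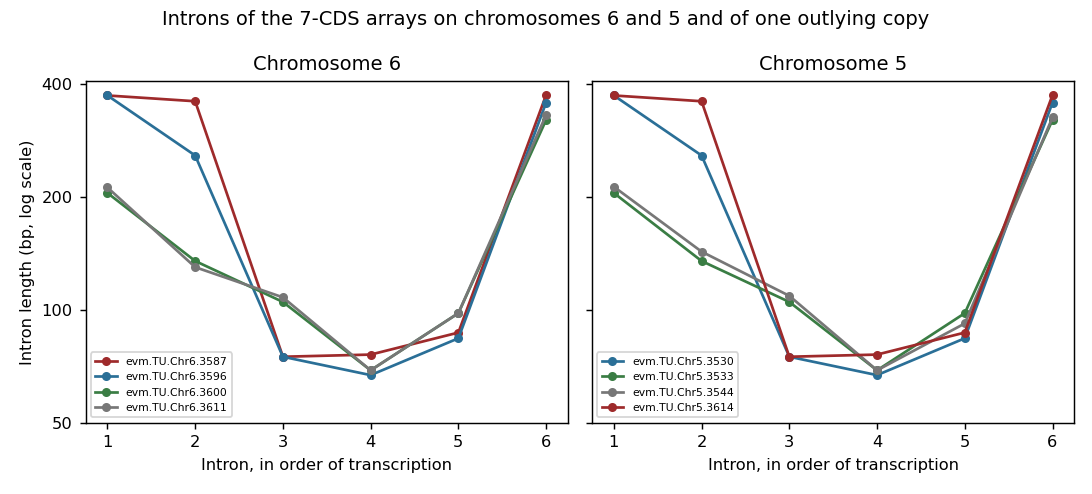
Intron lengths in bp (vertical axis, log scale) by intron number in order of transcription (horizontal axis) for 4 genes with 7 CDS features on chromosome 6 (left) and 4 with the same list on chromosome 5 (right). Red, blue and green lines mark genes equal in 6 of 6 introns on the 2 chromosomes, and the grey lines, evm.TU.Chr6.3611 and evm.TU.Chr5.3544, have no such counterpart.

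The other arrays of 4 genes had few equal introns as well, while those of 3 genes ran from 0% to 100%. The array from evm.TU.Chr10.383 (chr10:7661674-7663340) to evm.TU.Chr10.397 (chr10:8681600-8683160) had 4 genes over 1021487 bp, with internal lengths of 174, 168, 52 and 95 bp, and 3.33% of introns equal. Its only plus-strand gene was evm.TU.Chr10.388 (chr10:7877560-7879077), with introns of 90, 85, 73, 88 and 65 bp. Another model of the array, evm.TU.Chr10.384_evm.TU.Chr10.385_evm.TU.Chr10.387, has a joined identifier and an intron of 147767 bp. The partner array on chromosome 9 held 3 genes, and evm.TU.Chr9.781 there also had a long intron, of 45320 bp. The array from evm.TU.Chr4.2336 (chr4:41245784-41247235) to evm.TU.Chr4.2350 (chr4:41535022-41537036) had 4 genes with internal lengths of 72 and 210 bp and 5.56% of introns equal. The array from evm.TU.Chr13.1889 (chr13:36594101-36596233) to evm.TU.Chr13.1895 (chr13:36658110-36660535) had 3 genes of 8 CDS features. Its outer genes, on opposite strands, shared 4 of 7 introns.

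On chromosome 3, evm.TU.Chr3.4143 (chr3:78194352-78195593) and evm.TU.Chr3.4153 (chr3:78453116-78454929) bounded 4 genes with internal lengths of 192 and 166 bp. The inner genes evm.TU.Chr3.4147 and evm.TU.Chr3.4148, named after their values were seen, were wholly identical on opposite strands, 47700 bp apart, with introns of 51, 120 and 76 bp. All other pairs of this array shared 0 of 3 introns. Its single partner gene, evm.TU.Chr4.3691 (chr4:65867174-65868797), shared 0 of 3 introns with any of the 4.

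The other states gave examples that were not all typical. One of the 3 arrays of 3 genes without a partner copy, from evm.TU.Chr8.2492 (chr8:47137468-47138319) to evm.TU.Chr8.2496 (chr8:47214836-47215687), held 3 genes on the minus strand, each 852 bp long with 411 bp of CDS and introns of 225, 89 and 127 bp. They were separated by 35652 and 40012 bp with no gene between. The other arrays of this size and state, from evm.TU.Chr15.2836 to evm.TU.Chr15.2841 and from evm.TU.Chr19.4486 to evm.TU.Chr19.4489, named after their values were seen, had 0% of introns equal. The largest facing scattered genes, from evm.TU.Chr7.2745 (chr7:51420205-51422617) to evm.TU.Chr7.2752 (chr7:51606407-51610212), had 3 genes of 6 CDS features without 1 equal intron. The array from evm.TU.Chr16.3017 (chr16:55862882-55864855) to evm.TU.Chr16.3019 (chr16:55916541-55918079) overlapped itself. Its middle model, evm.TU.Chr16.3018_evm.TU.Chr16.3028, has a joined identifier and an intron of 201392 bp that encloses evm.TU.Chr16.3019. Both overlapping steps in the set involved such joined models, which made up 10 of the 602 array genes and 416 of the 23493 others.

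How far lists were local to a chromosome pair varied with the number of CDS features. For 94 arrays (32.8%) no other gene on the pseudochromosomes had the list, and for 98 (34.1%) it occurred on another chromosome pair, with up to 17 genes sharing 1 list. It did so for 54 of 99 arrays with 4 CDS features and for 2 of 28 with 11 or more. The matching shares for other genes were not computed, so these counts are not read as a trait of arrays. Of the 231 lists, 178 made 1 array, 49 made exactly 1 array on each chromosome of a pair, and 4 made arrays on more than 1 chromosome pair.

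Array genes with more CDS features were more alike in their introns. The share of equal introns over the steps was 33.6% with 4 CDS features, 41.4% with 5, 43.96% with 6 or 7, 52.8% with 8 to 10 and 77.2% with 11 to 36. The number of lengths that the rule compared rises along the same scale, so gene length and the strictness of the match cannot be told apart here.

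Array genes were otherwise shorter than the rest. Their median was 5 CDS features, 1020 bp of CDS and a gene length of 2354 bp, against 7, 1146 bp and 3207 bp in the 23493 other genes, and the share of genes that met the rule fell with the number of CDS features, as given above, so that the length of array genes and the reach of the rule cannot be told apart. Their median intron was 92 bp against 98 bp, and over chromosome pairs the difference was -3.55 ± 6.91 bp (SD, n = 11; lower in 7), which did not pass (exact permutation p = 0.126, adjusted p = 0.147). All internal lengths were multiples of 3 in 9.47% of array genes and 7.16% of others. An annotated UTR was present in 70.9% of array genes and 63.2% of others. Over chromosome pairs this difference was 7.25 ± 8.32 points (SD, n = 11; higher in 7; exact permutation p = 0.0215, adjusted p = 0.0501) and missed the threshold. Against other genes that share a list somewhere, it turned to -14.3 points (exact permutation, adjusted p = 0.00228).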

How the data were processed

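Gene models of the study's own I. sinensis assembly were analysed. Start and end positions, in bp counted from 1, were used as deposited by the authors, who combined ab initio, homology-based and transcript-based predictions with Evidence Modeler. Versions of these predictors: not given in the sources used here. FastQC, HISAT2 and Cufflinks appear in the submitters' processing notes, and expression values and depth of the RNA libraries were not used here. How models were merged or split bears directly on CDS lengths.

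Genes were ranked by start on each chromosome. Array genes of 1 list lying at most 10 ranks apart were joined, and a step runs between consecutive members. Values were computed with Python 3.11.15, pandas 2.3.3, NumPy 2.4.6, SciPy 1.17.1, networkx 3.6.1 and Matplotlib 3.10.9. Differences were averaged per chromosome pair and tested by exact two-sided sign-flip permutation over 11 pairs, at an adjusted p threshold of 0.05. Detection of arrays was tested on simulated data. Alternatives changed the number of CDS features, rank window, strand, list, tolerance of lengths and chromosome pairs included. Genes on unplaced scaffolds were left out.

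Named were all members of the 2 arrays with most genes and of that with most CDS features, and the outer genes of the next 4 by size, of the longest span, of the shortest median distance among arrays of 3 or more, and of the largest array of each partner state, ties going to more CDS features, then the lower chromosome and start. Members and lists were chosen with earlier results of these data known.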

Additional observations from a re-analysis of the deposited data

Results flagged for a closer look

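Genes on unplaced scaffolds lay outside every comparison above, yet the same rule found arrays there. Of 1067 such genes with 4 or more CDS features, 11 (1.03%) met the rule, a smaller share than the 2.5% on the pseudochromosomes. They are given because a count above 3 outside the comparisons was set to be flagged. The 11 genes formed 5 arrays on 5 scaffolds. All 6 steps kept the strand, and 4 were wholly identical. For 2 of the 5 arrays the list also occurred on a pseudochromosome, and for 1 of them in an array there.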

How the results depend on the processing

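Of 138 alternative values, 103 kept their direction, side of the threshold or size. The array genes, arrays and arrays facing an array numbered 1002, 468 and 177 with 3 or more CDS features, 392, 188 and 58 with 5 or more, 135, 67 and 12 with 8 or more, 355, 174 and 57 on 1 strand only, 294, 146 and 18 with all CDS lengths compared, and 387, 189 and 52 with lists on 1 chromosome pair only. The within-minus-across difference in introns was -1.23 points (adjusted p = 0.673 by the exact permutation test) with 3 or more CDS features, -7.29 with 8 or more, -6.50 on 1 strand only and 8.68 with all CDS lengths compared. That in total CDS no longer passed either, at -4.97 and -9.90 points (exact permutation, adjusted p = 0.137 and 0.147) with 3 or more and 8 or more. The same-strand difference passed at 13.6 points with 8 or more, 17.6 with all CDS lengths and 10.2 with lists on 1 chromosome pair. It was -0.285 without arrays holding a wholly identical pair and 2.61 without interleaved blocks, both added after seeing the data. The log2 gap difference was 0.24 from means, and the UTR difference -14.3 points against genes with a shared list. Leaving out each chromosome pair in turn gave 4.13 to 7.95 points for strand, -0.20 to 0.06 for the log2 gap (0.0612 without 5 and 6), -13.7 to -11.7 for introns, -20.6 to -17.7 for total CDS, 7.38 to 13.0 for near minus far introns, 5.98 to 8.39 for UTRs and -4.35 to -2.45 bp for intron length. The UTR difference passed without chromosomes 5 and 6, 7 and 8, or 11 and 12. The causes were not tested. Strand on 1 strand only and total CDS with all lengths compared were not run, since those settings fix them. No paired analysis was possible because no library enters a comparison. Depth bears on no value here.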
